A study of Homo sapiens with 24 samples.

Results

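Ribosome biogenesis factors, the nucleolar proteins that process ribosomal RNA and build it into the small (40S) and large (60S) subunits, were followed across 2 human osteosarcoma cell lines treated with the kinase inhibitor THZ2. The set holds 47 named genes, and a gene counted as measured where a probe set of the array named it and no other gene. Of the 47 genes, 45 had such a probe set, 106 probe sets in all of the 49372 on the array, and GNL3 and EBNA1BP2 had none. All 45 passed the filter on low intensity, as did 16175 of the 18132 genes that had a probe set of their own.

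The 24 arrays fall into 8 groups of 3. U2-OS and SJSA-1, both established lines from bone tumours, were given either the solvent DMSO, the control, or 25, 100 or 400 nM of THZ2, and were kept for 6 h in serum-containing medium. No genetic change was made to either line, and each group is 1 line at 1 dose and 1 time. CDK7, a kinase within TFIIH that acts on RNA polymerase II, is inhibited covalently by THZ2. The labels do not say whether the 3 arrays of a group came from separate cultures, so the p-values measure only the spread between these arrays.

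Ribosome assembly starts in the nucleolus, where RNA polymerase I makes a long precursor of the 18S, 5.8S and 28S RNAs. Small nucleolar RNPs mark single nucleotides of it, those of the box C/D kind by methylation and those of the box H/ACA kind by turning uridine into pseudouridine. The small subunit processome, built around the U3 small nucleolar RNP, folds and cuts the 18S part, while other factors, the PeBoW complex among them, assemble the large subunit before export to the cytoplasm. Tumour cells that divide fast need many ribosomes, and the genes of these factors are known targets of MYC, a transcription factor that binds the letters CACGTG. The mRNAs of the factors are made by RNA polymerase II.

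Promoter sequences were taken from RefSeq (GRCh38.p14), as windows of 250 bases before to 50 bases after an annotated start site. They covered 40 of the 47 genes with 47 promoters. For some genes this site lay inside the span of the gene. The BYSL window is chr6:41921249-41921548, while the span of BYSL begins at 41908759. The motifs searched, on both strands, were CACGTG, which reads the same on both, and the core bound by ETS factors such as GABPA, CCGGAAG. Their letters do not overlap. CACGTG stood in 20 of the 47 promoters (42.6%), against 7.26% of all 35116 promoters and 8.34% of the 22199 promoters of protein-coding genes. CCGGAAG stood in 17 promoters (36.2%), against 10.3% of all and 12.8% of protein-coding ones. By gene, 19 had CACGTG, 17 had CCGGAAG, 8 had both and 12 had neither. In 14 of the promoters with CACGTG a match lay after the start site, and in 13 of those with CCGGAAG a match lay within the 60 bases before it. Among the 28 promoters of the genes that fell in both lines at 400 nM, CACGTG stood in 10 (35.7%) and CCGGAAG in 12 (42.9%). Among the 15 promoters of the other measured genes the counts were 7 (46.7%) and 4 (26.7%). Whether these groups differ in either motif was not tested.

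The 120 bases before the start of 7 genes are printed as examples, with motif matches in capitals. NGDN, UTP3 and LTV1 fell strongly and carry CCGGAAG or its complement close to the start, IMP3 fell strongly and has none of the motifs here, UTP20 and NOP10 changed by less than 1 (log2) and carry CACGTG, NOP10 beside the complement of CCGGAAG, and FBL, also under 1, has no match in these bases. LTV1 also has CACGTG after its start, outside the printed bases. FBL likewise has CACGTG after its start and CCGGAAG further before it, both outside the printed bases. NOC2L, not printed, rose and has CCGGAAG close to its start. BYSL and WDR43 fell by more than 1 (log2) at 400 nM and have CACGTG but not CCGGAAG in their windows. A match describes the letters and does not show that a factor binds there.
NGDN, chr14:23469583-23469702 on the plus strand: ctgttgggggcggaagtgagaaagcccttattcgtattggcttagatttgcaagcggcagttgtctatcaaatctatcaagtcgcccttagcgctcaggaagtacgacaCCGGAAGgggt
UTP3, chr4:70688412-70688531 on the plus strand: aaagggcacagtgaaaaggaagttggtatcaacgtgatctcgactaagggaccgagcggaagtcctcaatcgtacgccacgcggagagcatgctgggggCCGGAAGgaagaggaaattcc
LTV1, chr6:143843218-143843337 on the plus strand: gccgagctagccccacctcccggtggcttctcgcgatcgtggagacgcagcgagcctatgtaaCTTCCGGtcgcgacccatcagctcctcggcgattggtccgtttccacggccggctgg
IMP3, chr15:75640225-75640344 on the minus strand: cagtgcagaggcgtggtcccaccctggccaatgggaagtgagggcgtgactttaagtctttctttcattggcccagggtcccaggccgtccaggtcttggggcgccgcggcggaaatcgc
UTP20, chr12:101279985-101280104 on the plus strand: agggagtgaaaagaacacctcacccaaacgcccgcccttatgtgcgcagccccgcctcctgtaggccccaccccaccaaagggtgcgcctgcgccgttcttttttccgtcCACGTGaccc
NOP10, chr15:34343137-34343256 on the minus strand: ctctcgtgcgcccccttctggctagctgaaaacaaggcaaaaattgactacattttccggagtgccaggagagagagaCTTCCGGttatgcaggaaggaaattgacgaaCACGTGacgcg
FBL, chr19:39846380-39846499 on the minus strand: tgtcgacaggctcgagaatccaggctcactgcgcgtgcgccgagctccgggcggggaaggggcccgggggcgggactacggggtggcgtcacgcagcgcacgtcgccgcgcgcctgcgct

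Values are the deposited intensities on a linear scale. A change is a difference between group means of log2 of the intensity plus 16, which understates the change of a dim gene, with ± its standard error from the limma model (3 arrays per group). That model holds 1 variance per gene over all 8 groups, so the standard errors are equal in both lines. In U2-OS they therefore also carry the spread of the SJSA-1 arrays. Beside an intensity, ± is the SD of 3 arrays. "Fell" and "rose" are kept for genes with a Benjamini-Hochberg adjusted p under 0.05 over the 16175 genes of that comparison, and a gene is dim where its intensity is at or under 12.73, the 30th percentile used as the filter.

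The arrays carry limits that touch every result. The median intensity was between 33.5 and 34.5 in the U2-OS arrays with DMSO, 25 and 100 nM, between 36.6 and 37.3 in those with 400 nM, and between 23.4 and 25.5 in SJSA-1. Exactly equal values in pairs of arrays, 1.67% to 5.47% of probe sets within the first set and 1.47% to 2.42% within the second, stood against at most 0.00405% between them, so the U2-OS arrays at 400 nM were taken as normalized apart, and dose and normalization set cannot be told apart there. The 12 poly-A spike-in probe sets, which read transcripts added to each RNA sample, had a mean log2 intensity per array of 6.111 to 6.149 with DMSO and 6.497 to 6.535 at 100 nM in U2-OS, and of 6.858 to 7.527 with DMSO and 7.515 to 9.057 at 400 nM in SJSA-1. In a bulk sample fewer cells of a type and less RNA per cell cannot be told apart. Of the 12 osteoblast and mesenchymal markers, 10 in U2-OS and 11 in SJSA-1 were above the filter on average, with IBSP under it on all 24 arrays, and their summed intensity was 12193 to 15914 and 17860 to 21307. The extraction protocol in the labels names another tissue, a brain region. Of 11 nervous tissue markers 9 and 6 were above the filter, with summed intensities of 718 to 1033 and 176 to 260, most of it NEFL in U2-OS (396 to 685), and AQP4 and NEFM were under the filter on all arrays. The sums of the 6 blood markers lay between 132 and 250.4, and of the 6 epithelial markers between 94.1 and 300.2. Whether any of these moved the results below was not tested.

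At 25 nM the factors stayed near their DMSO level. In U2-OS none of the 45 fell or rose by the limma test, with none at an unadjusted p under 0.05 either, where 0.0556% of all genes fell and 0.0247% rose. That test uses the variance shared with SJSA-1, and a fit of only the groups compared called a few factors, given further below. For 12 factors every U2-OS array at 25 nM lay above every DMSO array, and for 3 below. Among all 16175 genes these were 2103 and 1778. In SJSA-1 PPAN fell by 0.62 and NIP7 fell by 0.27, and none rose, against 6.28% and 1.98% of all genes. Without the adjustment 4 were lower and 5 higher there. NIP7, which binds RNA of the pre-60S particle, had an adjusted p of 0.0434 and was not called without DMSO replicate 2 or 3 or 25 nM replicate 1 or 3.

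At 100 nM THZ2 18 of 45 factors fell and 3 rose in U2-OS, where 22.2% of all genes fell and 19.8% rose. In SJSA-1 23 fell and 3 rose, against 25.1% and 24.4%. The median change of the factors was -0.18 in U2-OS and -0.26 in SJSA-1, beside 0.058 and 0.057 over all genes tested. Falls of 1 or more on the log2 scale were seen for 3 factors in U2-OS (4.08% of all genes) and 9 in SJSA-1 (6.2%).

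At 400 nM most factors had fallen. In U2-OS 34 of 45 fell and 2 rose, against 25% and 48.4% of all genes, with a median change of -0.64 beside 0.15 over all genes. In SJSA-1 32 fell and 1 rose, against 24.9% and 41.4%, with -0.54 beside 0.10. Falls of 1 or more were seen for 17 factors in U2-OS (6.92% of all genes) and 16 in SJSA-1 (8.51%). In both lines the share of falls among the factors lay above that of all genes, and the share of rises below it.

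The counts of falls stayed within 1.5 times of these under the other scalings of the arrays, and the counts of rises did not. With each array centred on its median, 16 fell and 9 rose in U2-OS at 100 nM (18.1% and 53.9% of all genes), and 33 and 4 at 400 nM (22.2% and 55%). In SJSA-1 19 and 12 (18.7% and 63.7%), then 26 and 10 (18.5% and 66.3%), fell and rose. With arrays centred on the spike-ins the same 4 comparisons gave 16, 27, 25 and 45 falls, against 18.9%, 19.1%, 25.5% and 92.1% of all genes, and 0 rises in each, against 0.278%, 2.92%, 0.321% and 0.0309%. The median of all genes was then -0.32, -0.18, -0.40 and -0.86, and at 400 nM in SJSA-1 nearly every gene fell, so the count of 45 is near the background. The spike-in mean log2 on those arrays was 7.967, 9.057 and 7.515, beside 6.858, 7.256 and 7.527 with DMSO. Replicate 2 at 400 nM thus weighs heavily in that shift, and the 2 groups overlap. Under all 4 scalings tried, with joint quantile normalization as the fourth, 16 factors fell at 100 nM and 27 at 400 nM in U2-OS. The SJSA-1 counts were 19 and 26, and none rose in any of these comparisons. How many of all genes fell under all 4 was not counted. Quantile normalization changed the distance between the factors' median and that of all genes from -0.23 to -0.17 in U2-OS at 100 nM and from -0.79 to -0.78 at 400 nM, and centring by a constant per array cannot change it.

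**Figure D1:**
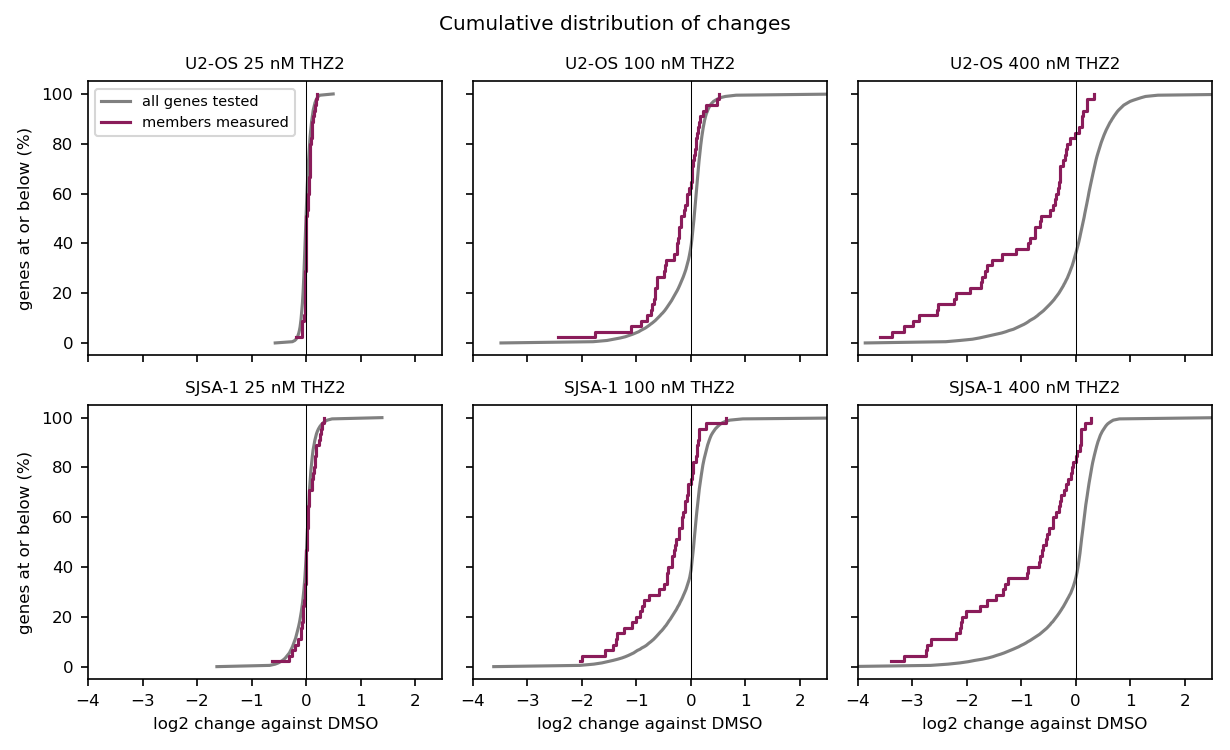
Cumulative distribution of log2 changes against DMSO (x axis, log2 of intensity plus 16) for the 45 measured factors (purple steps) and all 16175 genes tested (grey), 1 panel per line and dose, with the share of genes at or below a change on the y axis (%). At 25 nM the curves lie together, and at 400 nM the factors' medians are -0.64 in U2-OS and -0.54 in SJSA-1 beside 0.15 and 0.10 for all genes.

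**Figure D2:**
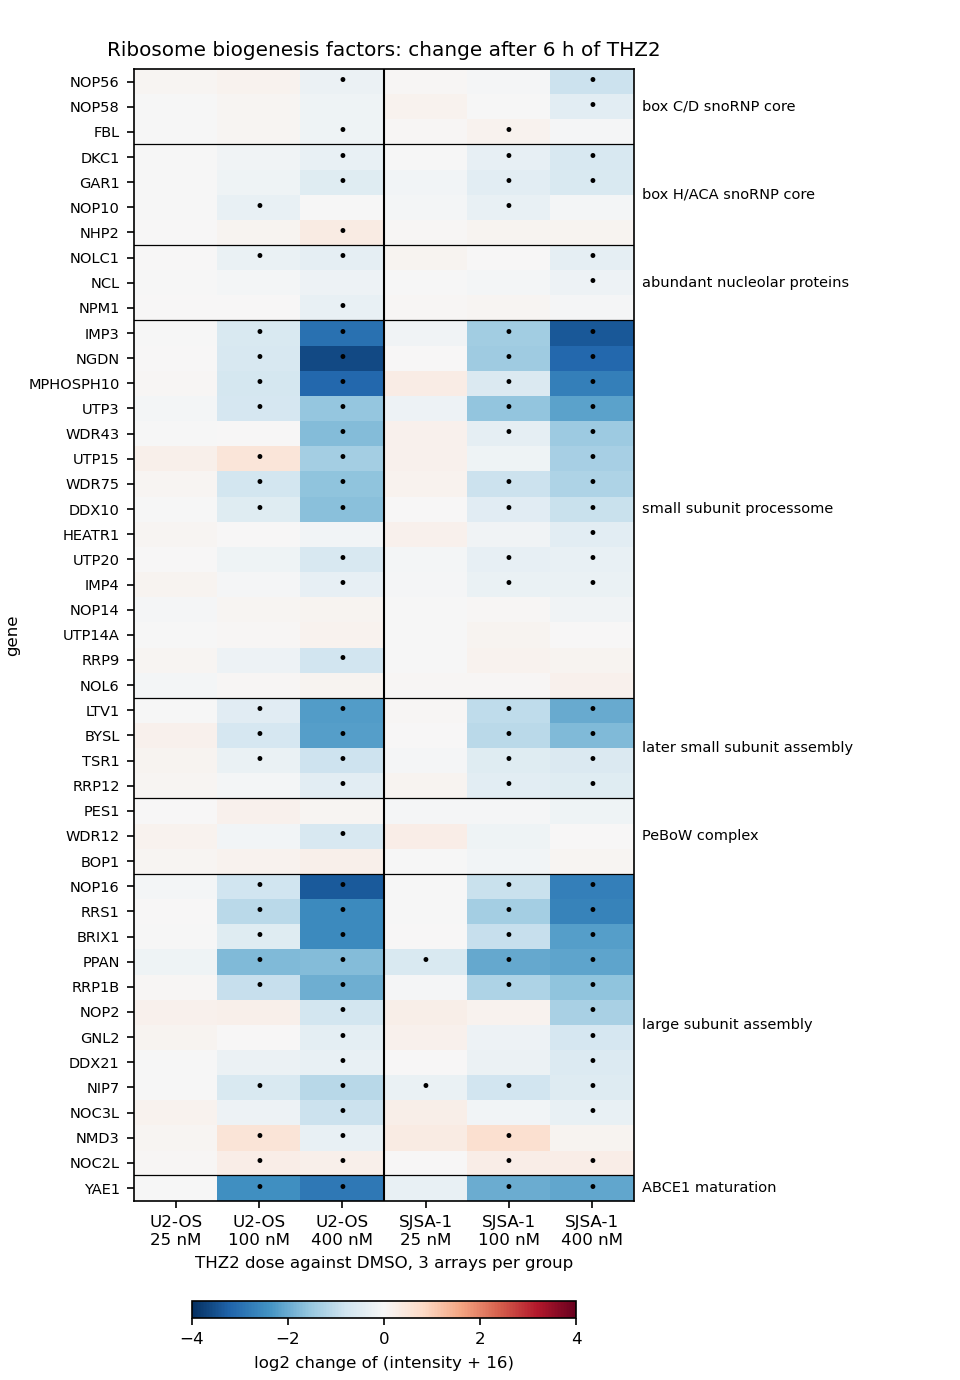
Log2 change of each of the 45 measured factors (rows, grouped by role) at 25, 100 and 400 nM THZ2 against DMSO in U2-OS and SJSA-1 (columns), 3 arrays per group, with a dot where the adjusted p was under 0.05. Among the darkest cells are NGDN, IMP3, MPHOSPH10 and NOP16 at 400 nM, between -2.73 and -3.60, while the PeBoW complex lies between -0.65 and 0.20 at that dose.

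The small subunit processome held the largest falls of single genes at 400 nM. Of its 15 factors, 11 fell in each line at 400 nM and none rose, with a median change of -1.35 in U2-OS and -0.88 in SJSA-1. At 100 nM 6 fell and 1 rose in U2-OS and 9 fell in SJSA-1.

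NGDN (neuroguidin), a processome protein of the Sas10 family, had the largest change of any factor in U2-OS. Its intensity was 420.4, 419 and 423 with DMSO, 421, 432 and 437 at 25 nM, 255, 264 and 268 at 100 nM and 13.5, 23.9 and 24.2 at 400 nM in U2-OS. In SJSA-1 it was 304, 335 and 329 with DMSO, 322, 340.1 and 311 at 25 nM, 103, 131 and 99.0 at 100 nM and 20.1, 24.1 and 21.9 at 400 nM. Every array at 100 nM lay below every DMSO array of its line, and the 400 nM arrays lay lower still, near the filter. The change at 400 nM was -3.60 ± 0.10 (adjusted p = 3.1e-21) in U2-OS, a ratio of mean intensities of 20.5-fold lower, and -3.16 ± 0.10 (adjusted p = 5.1e-20) in SJSA-1, 14.7-fold lower. These values come from the brightest of 3 NGDN probe sets. The other 2, both dimmer, gave 0.092 and -0.54 in U2-OS and 0.11 and 0.020 in SJSA-1 at 400 nM, so the probe sets of this gene disagree, and the mean of all 3 was -1.35 and -1.01.

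IMP3, MPHOSPH10 and IMP4 form a complex that joins the U3 RNA to the pre-ribosomal RNA. IMP3 read 1202, 1149 and 1117 with DMSO, 1148, 1106 and 1158 at 25 nM, 725, 762 and 747 at 100 nM and 112, 146 and 143 at 400 nM in U2-OS. On the SJSA-1 arrays it read 1687, 2077 and 2120.2 with DMSO, 1722, 1771 and 1783 at 25 nM, 699, 904 and 639 at 100 nM and 168, 193 and 161 at 400 nM. The groups at 100 and 400 nM do not overlap with DMSO or with each other in either line, and the change at 400 nM was -3.38 ± 0.10 (adjusted p = 3e-20) in SJSA-1, 11.3-fold lower, and -2.98 ± 0.10 in U2-OS. Its other probe set gave -3.16 in SJSA-1 and -2.75 in U2-OS.

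MPHOSPH10 read 929.9, 981 and 944 with DMSO, 935, 978 and 1062 at 25 nM, 566, 575 and 586 at 100 nM and 79.6, 104 and 99.2 at 400 nM in U2-OS. In SJSA-1 the intensities were 284, 241 and 244 with DMSO, 355, 278 and 315 at 25 nM, 139, 179.8 and 181 at 100 nM and 23.6, 18.1 and 34.8 at 400 nM. Its change at 400 nM was -3.14 ± 0.12 (adjusted p = 1.8e-18) and -2.73 ± 0.12, or 10.1-fold and 10.0-fold lower. IMP4, the third protein of the complex, moved far less, by -0.32 ± 0.11 and -0.27 ± 0.11 at 400 nM. Both falls passed the test, but neither held under all 4 scalings, and median centring gave -0.26 and -0.069. Its SJSA-1 arrays at 400 nM (343 to 519) overlapped those with DMSO (428 to 576). Within the complex the changes at 400 nM ran from -0.32 to -3.14 (U2-OS) and from -0.27 to -3.38 (SJSA-1).

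UTP3, the other Sas10-family protein here, read 861, 871 and 871 with DMSO, 821, 821 and 821 at 25 nM, 541, 541 and 546 at 100 nM and 289, 285 and 289 at 400 nM in U2-OS. SJSA-1 arrays gave 446, 391 and 391 with DMSO, 388, 307 and 362 at 25 nM, 105, 139 and 135 at 100 nM and 69.6, 79.3 and 96.3 at 400 nM. All 6 treated arrays at 100 and 400 nM lay below the DMSO arrays in each line, with -1.54 ± 0.10 in U2-OS and -2.13 ± 0.10 in SJSA-1 at 400 nM. The 3 U2-OS arrays at 25 nM hold the same deposited value, so their SD of 0 is no measure of the spread.

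The subunits that bind the precursor first, known as the t-UTP group, fell at 400 nM with 1 exception in U2-OS. WDR43 changed by -1.73 ± 0.092 in U2-OS, with -1.47 ± 0.092 in SJSA-1, and WDR75 by -1.62 ± 0.13 and -1.25 ± 0.13. UTP15 changed by -1.35 ± 0.12 and -1.34 ± 0.12. HEATR1, another of the group, changed by -0.11 ± 0.10 in U2-OS, which did not pass, and fell in SJSA-1 with -0.41 ± 0.10.

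UTP15 was also among the few factors that rose, in U2-OS at 100 nM. It read 118, 122 and 127 with DMSO, 140.4, 146 and 142 at 25 nM, 186, 176 and 171 at 100 nM and 26.3, 45 and 45.5 at 400 nM. Its SJSA-1 arrays gave 72.0, 56.9 and 59.7 with DMSO, 82.1, 64 and 73.0 at 25 nM, 43.4, 63.6 and 58.1 at 100 nM and 13.9, 13.2 and 18.3 at 400 nM. In U2-OS the 100 nM arrays lay above DMSO and the 400 nM arrays below, and the rise was 0.48 ± 0.12 (adjusted p = 0.00169). The 2 other UTP15 probe sets gave -0.71 and -0.47 in the same comparison, and the mean of its probe sets -0.23, so the direction at 100 nM depends on the probe set.

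Among the rest of the processome, DDX10, an RNA helicase, changed at 400 nM by -1.66 ± 0.11 in U2-OS, with -0.88 ± 0.11 in SJSA-1, and UTP20 by -0.64 ± 0.10 and -0.31 ± 0.10. RRP9, a protein bound to the U3 RNA, fell in U2-OS with -0.75 ± 0.11, from 303 ± 6.94 to 173 ± 4.04, and had 0.10 ± 0.11 in SJSA-1, which did not pass. NOP14 and NOL6 passed in no comparison, with values between -0.14 and 0.18 at 100 and 400 nM. UTP14A was dim in U2-OS, at 7.92 ± 0.822 with DMSO, and gives no fold there. A probe set that names both UTP14A and UTP14C went from 144 ± 4.45 to 86.6 ± 10.9 at 400 nM in U2-OS, and in SJSA-1 it went from 173 ± 7.8 to 111 ± 7.98.

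**Figure D3:**
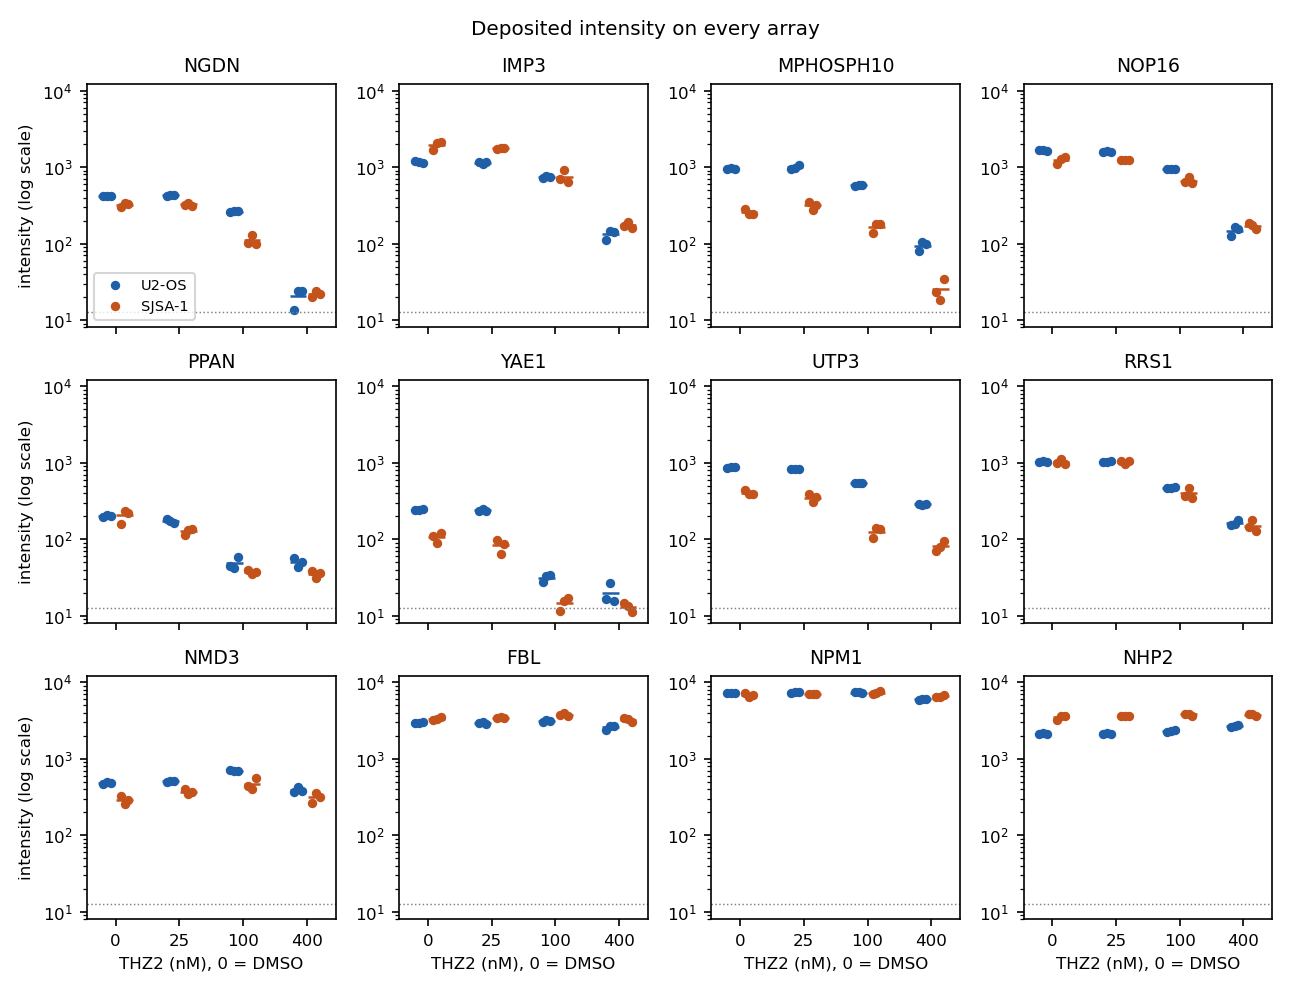
Deposited intensity on every array (y axis, log scale) for 12 factors against THZ2 dose (x axis, nM, 0 = DMSO), with U2-OS in blue and SJSA-1 in orange, a short line at each group mean of 3 arrays and a dotted line at the filter intensity of 12.73. NGDN, IMP3, MPHOSPH10 and NOP16 drop mainly between 100 and 400 nM, PPAN and YAE1 between 25 and 100 nM, and FBL, NPM1 and NHP2 stay within a narrow band.

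The factors of later small subunit assembly all fell at 400 nM, 4 of 4 in each line, with medians of -1.52 in U2-OS and -1.17 in SJSA-1. BYSL (bystin), which holds the pre-40S particle until export, changed by -2.20 ± 0.12 and -1.76 ± 0.12, and LTV1, an export and maturation factor, by -2.23 ± 0.12 and -2.01 ± 0.12. BYSL went from 571 ± 3.49 to 112 ± 3.73 (U2-OS) and from 532 ± 73.0 to 148 ± 36.8 (SJSA-1), and LTV1 from 341 ± 16.7 to 60.9 ± 12 and from 196 ± 27.8 to 36.6 ± 6.63. TSR1, a GTPase-like protein of the pre-40S particle, had -0.84 ± 0.075 and -0.59 ± 0.075, with a dimmer second probe set that rose by 0.52 in U2-OS at 400 nM. The fall of BYSL rests on its brightest probe set: the other 2 did not pass the filter, and the mean of all 3 gave -0.81 and -0.54 at 400 nM. RRP12, an export factor, had -0.41 ± 0.092 and -0.50 ± 0.092.

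Of 12 measured factors of large subunit assembly, 11 fell in U2-OS and 10 in SJSA-1 at 400 nM, with 1 rise in each line and medians of -0.98 and -0.99. At 100 nM 6 fell and 2 rose in both lines. At 400 nM NOP16 and RRS1 had the largest falls of the group, and at 100 nM PPAN.

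NOP16, a protein of early pre-60S particles, read 1693, 1659 and 1634 with DMSO, 1552, 1618 and 1552 at 25 nM, 931, 943 and 943 at 100 nM and 126, 164 and 153 at 400 nM in U2-OS. For SJSA-1 the values were 1089.9, 1278 and 1361 with DMSO, 1226, 1235 and 1235 at 25 nM, 630.4, 739 and 613 at 100 nM and 185, 174 and 156 at 400 nM. The 400 nM arrays of each line lay below all others of that line, and the change was -3.37 ± 0.087 (adjusted p = 7.2e-22) in U2-OS and -2.74 ± 0.087 (adjusted p = 5.1e-20) in SJSA-1, 11.3-fold and 7.24-fold lower. The mean of its probe sets gave -2.02 and -1.77, and its other probe set that passed the filter -2.88 and -2.66.

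RRS1, which helps to place the 5S RNP in the large subunit, read 1031, 1046 and 1013 with DMSO, 1017, 1030.2 and 1043 at 25 nM, 476, 464 and 483 at 100 nM and 154, 159 and 178 at 400 nM in U2-OS. SJSA-1 gave 1003, 1121 and 976 with DMSO, 1068, 962 and 1068 at 25 nM, 372, 471 and 352 at 100 nM and 144, 179 and 129.8 at 400 nM. The DMSO means of the lines were nearly the same, 1030.2 ± 16.6 and 1033 ± 77.1, though normalized apart, and both fell in steps to 164 ± 12.7 and 151 ± 25.1. BRIX1, its neighbour in the pre-60S particle, had -2.53 ± 0.086 and -2.20 ± 0.086 at 400 nM.

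PPAN, the human SSF1 protein of the pre-60S particle, fell at the lowest dose that changed any factor. Its U2-OS values were 195, 206 and 204 with DMSO, 186, 176 and 165 at 25 nM, 44.8, 42.3 and 58.5 at 100 nM and 57.8, 43.1 and 49.9 at 400 nM. Its SJSA-1 values were 161, 237 and 221 with DMSO, 115, 133 and 135 at 25 nM, 40.2, 34.8 and 37.3 at 100 nM and 38.3, 31.1 and 36.5 at 400 nM. In SJSA-1 all arrays at 25 nM lay below those with DMSO, with -0.62 ± 0.11 (adjusted p = 0.000396), and in both lines the arrays at 100 and 400 nM overlap with each other. The change at 100 nM was -1.76 ± 0.11 in U2-OS, with -2.04 ± 0.11 in SJSA-1, and the step from 100 to 400 nM was 0.041 (95% interval -0.19 to 0.27) and -0.059 (95% interval -0.29 to 0.17), neither of which passed. A probe set that PPAN shares with its read-through gene PPAN-P2RY11 ran from 43.4 ± 1.92 with DMSO to 23.9 ± 3.56 at 100 nM and 30.6 ± 3.48 at 400 nM in U2-OS, and from 54.3 ± 5.8 to 16.9 ± 3.63 and 20.2 ± 2.41 in SJSA-1.

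RRP1B, a nucleolar protein that also binds protein phosphatase 1, read 643, 755 and 705 with DMSO, 729.9, 713 and 728 at 25 nM, 355, 387 and 351 at 100 nM and 159.8, 194 and 159 at 400 nM in U2-OS. Its SJSA-1 arrays read 1009.9, 929 and 809 with DMSO, 898, 867 and 898 at 25 nM, 359.5, 419 and 359.5 at 100 nM and 280.1, 288 and 292 at 400 nM. Treated arrays at 100 and 400 nM lay below DMSO in each line, with -0.91 ± 0.087 and -1.24 ± 0.087 at 100 nM. Its dimmer second probe set gave 0.11 and 0.36 at 100 nM, so its probe sets disagree as well.

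NIP7 read 1143, 1123 and 1079.5 with DMSO, 1112, 1086 and 1087 at 25 nM, 667, 724 and 784 at 100 nM and 496, 534 and 511 at 400 nM in U2-OS. In SJSA-1 it read 657, 709 and 685 with DMSO, 508, 630.4 and 564 at 25 nM, 372, 422 and 385 at 100 nM and 519, 488 and 416 at 400 nM. It fell at 100 nM in both lines, -0.61 ± 0.083 and -0.78 ± 0.083, and in SJSA-1 the 400 nM mean of 474 ± 52.9 lay above that at 100 nM of 393 ± 25.6. NOP2, an RNA methyltransferase of the large subunit, did not pass at 100 nM and fell at 400 nM, with -0.74 ± 0.11 in U2-OS, with -1.30 ± 0.11 in SJSA-1, and its 2 other probe sets gave -0.68 and -0.93, then -1.50 and -1.51. GNL2, a nucleolar GTPase, NOC3L and the helicase DDX21 fell by less than 1 in both lines at 400 nM, between -0.29 and -0.87. A dimmer DDX21 probe set rose in U2-OS at that dose, and the mean of its probe sets gave -0.11 there and -0.49 in SJSA-1. Median centring brought NOC3L in SJSA-1 to -0.084, and its fall there did not hold under all 4 scalings.

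The exceptions in this group were NMD3 and NOC2L. NMD3, the export adaptor of the large subunit, read 472, 498 and 476 with DMSO, 498, 514 and 514 at 25 nM, 705, 689.9 and 689 at 100 nM and 370.0, 427 and 379 at 400 nM in U2-OS. The SJSA-1 arrays gave 329, 254 and 290.0 with DMSO, 402, 340.1 and 365 at 25 nM, 437, 402 and 553 at 100 nM and 265, 359.5 and 317 at 400 nM. It rose at 100 nM in both lines, 0.51 ± 0.11 (adjusted p = 0.000277) and 0.64 ± 0.11 (adjusted p = 1.3e-05), with all 100 nM arrays above the DMSO arrays, and at 400 nM was -0.29 ± 0.11 in U2-OS, a fall, and 0.10 ± 0.11 in SJSA-1. With spike-in centring the changes at 100 nM were 0.13 and 0.19 and did not pass.

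NOC2L, which pairs with NOC3L in the pre-60S particle and is also known as an inhibitor of histone acetylation, read 343, 341 and 331 with DMSO, 348, 352 and 358 at 25 nM, 420.2, 404 and 411 at 100 nM and 367, 392 and 421 at 400 nM in U2-OS. SJSA-1 intensities were 446, 534 and 580.0 with DMSO, 545, 495 and 545 at 25 nM, 635, 635 and 617 at 100 nM and 600.5, 729 and 564 at 400 nM. It rose in both lines at 100 and 400 nM by 0.21 to 0.28, with adjusted p of 0.0371 in U2-OS and 0.00938 in SJSA-1 at 400 nM. With spike-in centring all 4 rises turned, to -0.11 and -0.12 in U2-OS and -0.18 and -0.69 in SJSA-1 at 100 and 400 nM. The value of -0.69 rests on a spike-in mean that replicate 2 at 400 nM raised. The U2-OS call at 400 nM was lost without any of the DMSO arrays, or without 400 nM replicate 2 or 3, and the SJSA-1 call at 100 nM without DMSO replicate 1. The SJSA-1 call at 400 nM, the only rise there, also depended on the arrays used. With 1 array left out the count of rises went as low as 0, and with only the groups compared it was 0. Those arrays (564 to 729) overlap with DMSO (446 to 580.0).

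The PeBoW complex (PES1, BOP1 and WDR12), is needed to process the RNA of the large subunit. None of the 3 passed at 100 nM in either line, and at 400 nM WDR12 alone fell, in U2-OS. BOP1 read 1129.8, 1108 and 1115 with DMSO, 1152, 1194 and 1180.0 at 25 nM, 1119, 1249 and 1303 at 100 nM and 1250.4, 1277 and 1336 at 400 nM in U2-OS. Its SJSA-1 intensities were 605, 838 and 873 with DMSO, 714, 760.1 and 771 at 25 nM, 680.3, 744 and 699 at 100 nM and 792, 1075 and 605 at 400 nM. The SJSA-1 arrays at 400 nM spread from 605 to 1075, over the whole range seen with DMSO, and the 95% interval of the change was -0.19 to 0.33, and -0.058 to 0.46 in U2-OS. All 3 U2-OS arrays at 400 nM lay above the DMSO arrays, and the interval there carries the SJSA-1 spread through the shared variance.

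PES1 read 490.2, 481 and 412 with DMSO, 474, 442 and 465 at 25 nM, 516, 516 and 533 at 100 nM and 449.9, 500.4 and 500.4 at 400 nM in U2-OS. In SJSA-1 it was 319.6, 377 and 437 with DMSO, 372, 375 and 338 at 25 nM, 391, 359.5 and 340.1 at 100 nM and 349.7, 352 and 294 at 400 nM. The intervals at 400 nM were -0.13 to 0.26 and -0.37 to 0.023, and treated and DMSO arrays overlap in both lines. WDR12 read 770.5, 846 and 841 with DMSO, 879.7, 879.7 and 959.7 at 25 nM, 754, 757 and 776 at 100 nM and 527, 514 and 507 at 400 nM in U2-OS. The other line gave 307, 274 and 274 with DMSO, 319.6, 410.1 and 319.6 at 25 nM, 234, 259.6 and 263 at 100 nM and 326, 294 and 247 at 400 nM. It changed by -0.65 ± 0.093 (adjusted p = 5.4e-07) at 400 nM in U2-OS and had 0.013 ± 0.093 in SJSA-1. A dimmer WDR12 probe set rose by 0.46 in that U2-OS comparison, and another gave -0.56. With spike-in centring BOP1 and WDR12 in SJSA-1 at 400 nM turned to -0.89 and -0.95, where replicate 2 raised the spike-in mean.

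The core proteins of the small nucleolar RNPs moved by less than 1 (log2) in both lines. In the box C/D group NOP56 and FBL fell in U2-OS at 400 nM and NOP56 and NOP58 in SJSA-1. NOP56, a scaffold protein, read 3636, 3564 and 3698 with DMSO, 3746, 3780.1 and 3858 at 25 nM, 3831, 4067 and 4185 at 100 nM and 2853, 3196 and 3284 at 400 nM in U2-OS. SJSA-1 arrays read 2778, 3192 and 2684 with DMSO, 2916, 3126 and 2876 at 25 nM, 2610.3, 3083 and 2647 at 100 nM and 1541, 1574 and 1574 at 400 nM. The SJSA-1 arrays at 400 nM lay below all others of the line, with -0.87 ± 0.065 (adjusted p = 3e-12), beside -0.23 ± 0.065 (adjusted p = 0.00295) in U2-OS, and its 3 other probe sets gave -0.74, -0.71 and -0.83 in SJSA-1.

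FBL (fibrillarin), the methyltransferase, read 2956, 2884 and 2975 with DMSO, 2955, 2998 and 2858 at 25 nM, 3027, 3208 and 3132 at 100 nM and 2388, 2683 and 2683 at 400 nM in U2-OS. It was 3169, 3327 and 3541 with DMSO, 3350.1, 3517 and 3397 at 25 nM, 3692, 3902 and 3591 at 100 nM and 3373, 3327 and 2978 at 400 nM in SJSA-1. It fell in U2-OS at 400 nM, -0.19 ± 0.055 (adjusted p = 0.00383), and rose in SJSA-1 at 100 nM, 0.16 ± 0.055 (adjusted p = 0.0214). That rise was not called without DMSO replicate 1 or 100 nM replicate 2 and turned to -0.30 with spike-in centring, and the SJSA-1 value at 400 nM of -0.053 ± 0.055 turned to 0.15 with median centring.

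In the box H/ACA group DKC1, the pseudouridine synthase also bound to telomerase RNA, read 2346, 2376 and 2409 with DMSO, 2418, 2323 and 2376 at 25 nM, 2097, 2209 and 2212 at 100 nM and 1870.4, 1980.0 and 1967 at 400 nM in U2-OS. Its values in SJSA-1 were 1399, 1389 and 1184 with DMSO, 1314, 1296 and 1342 at 25 nM, 955, 1136 and 1038 at 100 nM and 826, 838 and 849 at 400 nM. All arrays at 400 nM lay below DMSO in each line, with -0.29 ± 0.063 (adjusted p = 0.000187) and -0.65 ± 0.063 (adjusted p = 1e-09). GAR1 fell by similar amounts at 400 nM, -0.48 ± 0.087 and -0.61 ± 0.087. NOP10 fell at 100 nM in both lines, -0.31 ± 0.058 and -0.28 ± 0.058, but its 400 nM values of -0.019 ± 0.058 and -0.079 ± 0.058 did not pass.

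NHP2, the fourth core protein, read 2098, 2168 and 2127 with DMSO, 2111, 2159.8 and 2125 at 25 nM, 2211, 2297 and 2369.9 at 100 nM and 2614, 2669 and 2773 at 400 nM in U2-OS. For SJSA-1 the arrays gave 3236, 3616 and 3641 with DMSO, 3616, 3641 and 3566 at 25 nM, 3848, 3875 and 3641 at 100 nM and 3822, 3795 and 3591 at 400 nM. It rose in U2-OS at 400 nM, 0.33 ± 0.049 (adjusted p = 1e-06), with all 3 arrays above DMSO, and this became -0.0011 with spike-in centring. Among the genes of this RNP in U2-OS at 400 nM, DKC1 and GAR1 fell and NHP2 rose on the deposited scale.

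The abundant nucleolar proteins also changed by less than 1 (log2). NPM1 (nucleophosmin), a histone and ribosome chaperone, read 7250.1, 7238 and 7318 with DMSO, 7281, 7446 and 7535 at 25 nM, 7416, 7365 and 7160.5 at 100 nM and 5823, 5959 and 6107 at 400 nM in U2-OS. In the other line it read 7281, 6339 and 6889 with DMSO, 7033, 7033 and 7033 at 25 nM, 6936, 7231 and 7697 at 100 nM and 6339, 6472 and 6841 at 400 nM. Its fall in U2-OS at 400 nM was -0.29 ± 0.043 (adjusted p = 1.5e-06), and -0.06 ± 0.043 in SJSA-1 did not pass. The mean of its probe sets gave -0.028 in U2-OS at 400 nM, which did not pass, and median centring turned the SJSA-1 value to 0.14. The 3 SJSA-1 arrays at 25 nM hold 1 identical value.

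NCL (nucleolin) read 4723, 4893 and 4788 with DMSO, 4881, 4605 and 4632 at 25 nM, 4965, 4349.8 and 4444 at 100 nM and 4122, 4329 and 4174 at 400 nM in U2-OS. Its SJSA-1 readings were 4451, 3169 and 3769 with DMSO, 3902, 3214 and 4211 at 25 nM, 3397, 3350.1 and 4012 at 100 nM and 3148, 3126 and 3492 at 400 nM. The SJSA-1 DMSO arrays spread from 3169 to 4451, and the fall at 400 nM there, -0.21 ± 0.091 (adjusted p = 0.0441), was not called without DMSO replicate 1 or 3 or 400 nM replicate 1 or 2, and was -0.088 without DMSO replicate 1. In U2-OS -0.19 ± 0.091 did not pass, although all 3 arrays at 400 nM lay below those with DMSO. NOLC1, a snoRNP chaperone, fell at 400 nM, with -0.37 ± 0.093 and -0.37 ± 0.093.

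YAE1 has another role, as an adaptor that brings iron-sulfur clusters to ABCE1, the factor that splits ribosomes after translation. Its U2-OS intensities were 240.5, 243 and 247 with DMSO, 233, 251 and 235 at 25 nM, 28.0, 32.9 and 34.2 at 100 nM and 16.6, 27.3 and 15.7 at 400 nM. In SJSA-1 they were 109, 90.5 and 123 with DMSO, 98.4, 65.3 and 88.0 at 25 nM, 11.7, 15.6 and 17.1 at 100 nM and 14.6, 13.3 and 11.2 at 400 nM. At 100 nM it had the largest fall of any factor in U2-OS, -2.45 ± 0.12 (adjusted p = 8.5e-16), and -2.0 ± 0.12 (adjusted p = 3.2e-14) in SJSA-1. The SJSA-1 arrays at 100 and 400 nM lie around the filter intensity of 12.73. The step from 100 to 400 nM was -0.43 ± 0.12 (adjusted p = 0.00232) in U2-OS and -0.083 (95% interval -0.32 to 0.16) in SJSA-1.

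Factors that fell by 1 or more at 400 nM had reached different shares of that change at 100 nM, which were not tested against each other. PPAN had 102% of its 400 nM change at 100 nM in U2-OS, with 97.2% in SJSA-1, and YAE1 85.2% and 96%. NGDN had 18.1% in U2-OS and 45.1% in SJSA-1, BRIX1 18.6% and 42.5%, IMP3 20.9% and 40.9%, MPHOSPH10 22.6% and 21.3% and NOP16 24.1% and 32.6%. The shares of NGDN rest on its brightest probe set, with which its other probe sets disagree. From 100 to 400 nM 31 of 45 factors fell and 2 rose in U2-OS, where 20.3% of all genes fell and 44.4% rose, and 25 fell and 2 rose in SJSA-1, against 11.7% and 14.9%. From 25 to 100 nM 21 fell and 3 rose in U2-OS (23.3% and 24.8% of all genes) and 26 and 2 in SJSA-1 (23.1% and 18.6%).

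The lines shared most calls. At 100 nM 17 of 45 factors fell in both lines, against 16.8% of all genes, 2 rose in both (NOC2L and NMD3), against 10.3%, and none passed in opposite directions, against 0.655%. At 400 nM 29 fell in both and NOC2L rose in both, against 17.1% and 28.6% of all genes, and none passed in opposite directions, against 4.42%. At that dose 5 passed as falls in U2-OS alone and 3 in SJSA-1 alone, which is no test of a difference, and NOP10, UTP14A, NOL6, NOP14, BOP1 and PES1 passed in neither. Over the 45 factors the changes in the lines had Pearson's r of 0.889 and Spearman's rho of 0.854 at 100 nM and 0.936 and 0.86 at 400 nM, beside 0.769, 0.709, 0.742 and 0.604 over all genes. These are descriptions across genes that share their arrays. No factor fell in all 6 comparisons, 14 fell in 4 of them and PPAN and NIP7 in 5, and 7 fell in none (NHP2, UTP14A, NOL6, NOP14, BOP1, PES1 and NOC2L). UTP14A is counted by its own probe set, which was dim in U2-OS. For these patterns, and for falls in 1 line alone, the share over all genes was not counted, so they describe the factors only.

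Some factors differed between the lines in the size of the change, tested as an interaction of line and dose. At 25 nM none passed by limma, where 0.915% of all genes had the lower effect in SJSA-1 and 0.179% the higher, and 1 had an unadjusted p under 0.05. At 100 nM 7 factors had the lower effect in SJSA-1 and none the higher, against 9.74% and 7.14% of all genes, and without SJSA-1 100 nM replicate 2 the count was 11. UTP3 led with a difference of -0.92 ± 0.14 (adjusted p = 1.6e-05), -0.66 ± 0.10 in U2-OS beside -1.58 ± 0.10 in SJSA-1. NGDN had -0.77 ± 0.14 (adjusted p = 0.000203), -0.65 ± 0.10 beside -1.42 ± 0.10, and IMP3 -0.76 ± 0.15 (adjusted p = 0.000385), -0.62 ± 0.10 beside -1.38 ± 0.10. The mean of the NGDN probe sets gave a difference of -0.29, with -0.16 in U2-OS and -0.46 in SJSA-1. The others were UTP15, LTV1, BRIX1 and WDR43, with differences of -0.64, -0.56, -0.47 and -0.37. For UTP15 the mean of its probe sets gave -0.23 in U2-OS and -0.41 in SJSA-1, so this difference depends on the probe set. With spike-in centring none passed, with differences of -0.99, -0.85 and -0.83 for UTP3, NGDN and IMP3.

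At 400 nM 6 factors had the lower effect in SJSA-1 and 14 the higher, against 31.4% and 14.5% of all genes, and here the line effect includes the separate normalization of the U2-OS arrays at 400 nM. NOP56 differed by -0.65 ± 0.092 (adjusted p = 2e-06), UTP3 by -0.59 ± 0.14 (adjusted p = 0.00102) and NOP2 by -0.57 ± 0.15 (adjusted p = 0.00381), all lower in SJSA-1. RRP9 differed by 0.86 ± 0.16 (adjusted p = 6.8e-05), YAE1 by 0.79 ± 0.16 (adjusted p = 0.000307) and DDX10 by 0.78 ± 0.16 (adjusted p = 0.000211), all lower in U2-OS. The intensity of YAE1 in SJSA-1 lay around the filter at that dose, which limits how far its fall could be followed. MPHOSPH10 was dimmer in SJSA-1, and its log2 changes of -2.73 there and -3.14 in U2-OS stand for nearly the same ratio of mean intensities. UTP3 and NOP2 did not pass with joint quantile normalization, nor UTP3 with the mean of probe sets, and RRP9, YAE1 and DDX10 did not pass with spike-in centring, under which 8 differences passed in all, against 20.

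**Figure D4:**
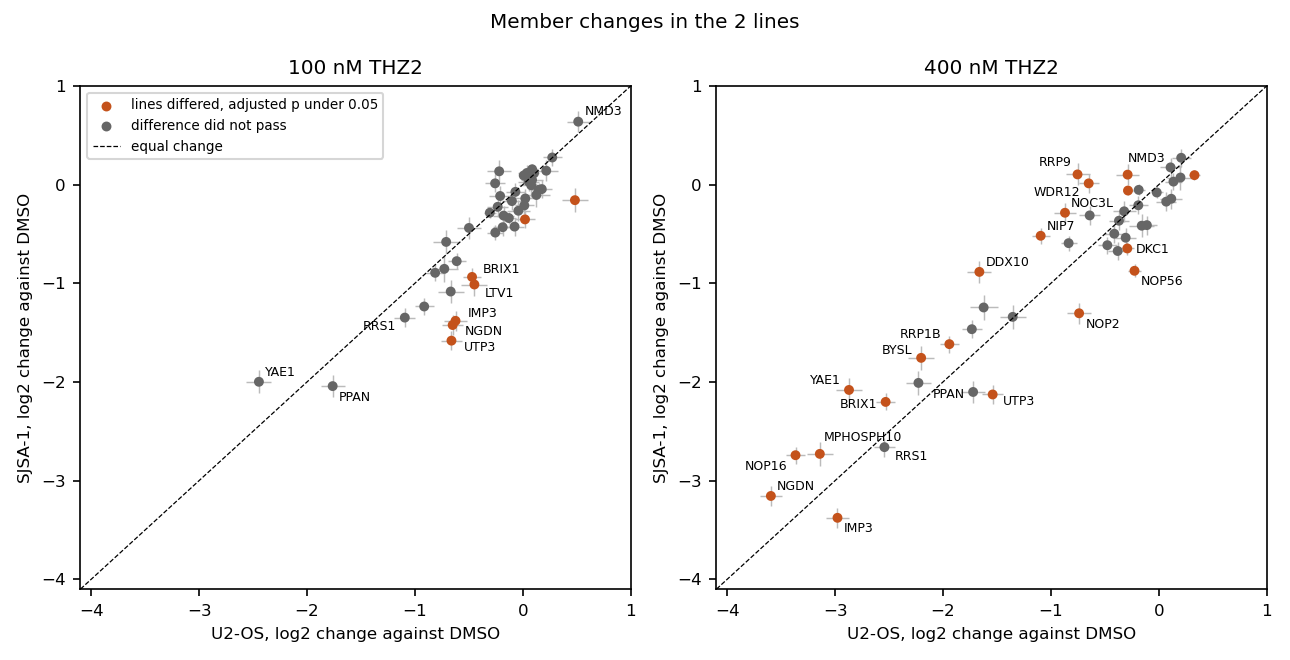
Log2 change against DMSO of the 45 factors in U2-OS (x axis) and SJSA-1 (y axis) at 100 nM (left) and 400 nM (right), with standard errors as bars, the dashed line marking equal change, and orange points where the difference between the lines had an adjusted p under 0.05. At 100 nM UTP3, NGDN, IMP3, LTV1 and BRIX1 lie below the line. At 400 nM NOP16, MPHOSPH10, YAE1 and DDX10 lie above it. MPHOSPH10 went from mean intensities of 952 to 94.1 (U2-OS) and 256 to 25.5 (SJSA-1), nearly the same ratio. Its place above the line reflects the constant added to intensities before log2, which weighs more at low intensity.

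A list of 106 other ribosome biogenesis genes, 102 of them tested, also held more falls than rises at 100 and 400 nM. In U2-OS 0 fell and 0 rose at 25 nM (by limma, with 1 lower and 2 higher at an unadjusted p under 0.05), 37 and 7 at 100 nM (22.2% and 19.8% of all genes) and 60 and 17 at 400 nM (25% and 48.4%). In SJSA-1 the counts were 6 and 2 at 25 nM, a share near the 6.28% and 1.98% of all genes, then 55 and 13 (25.1% and 24.4%), then 64 and 13 (24.9% and 41.4%). Their medians at 400 nM were -0.40 in U2-OS and -0.45 in SJSA-1. The SJSA-1 count at 25 nM ran from 4 to 17 when 1 array was left out, with the highest without DMSO replicate 1.

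EXOSC3, a subunit of the RNA exosome that trims the 3' ends of ribosomal RNA, had -1.73 ± 0.087 at 100 nM and -2.48 ± 0.087 at 400 nM in U2-OS and -1.99 ± 0.087 at 100 nM in SJSA-1. EXOSC4, another subunit, had -1.19 ± 0.14 at 100 nM in U2-OS. RIOK2, a kinase of the late pre-40S particle, had -2.69 ± 0.10 at 400 nM in U2-OS, ZNF622, of cytoplasmic large subunit maturation, and ABT1 had -2.19 ± 0.092 and -2.19 ± 0.11 at 400 nM in SJSA-1, and EMG1, a methyltransferase of 18S RNA, -0.52 ± 0.12 and -1.76 ± 0.12 at 25 and 100 nM there. SURF6, a nucleolar protein of the pre-60S particle, had -0.43 ± 0.12 at 25 nM in SJSA-1. The largest rises were RCL1, an endonuclease-like processome protein, with 1.44 ± 0.094 and 0.90 ± 0.094 at 100 nM, the helicase DDX51 with 0.98 ± 0.092 at 400 nM in U2-OS, and the RNA kinase NOL9 and the processome protein FCF1 with 0.51 ± 0.092 at 25 nM and 0.53 ± 0.09 at 400 nM in SJSA-1.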

How the data were processed

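RNA of 24 cell line samples was measured on GeneChip PrimeView arrays. Each deposited value is the linear intensity of a probe set on an array, and per the submitters' processing notes MAS5 and RMA were used, with no statement of which made these values and no versions. All SJSA-1 values lie on whole hundredths of log2 (tolerance 2e-04), against 3.74% and 3.78% in the U2-OS sets. The 47 members, the other gene lists, the tests and the alternatives were chosen with earlier results of these data known.

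Of 49372 probe sets 79 were controls, 44994 named 1 gene, 1832 several and 2473, beside the controls, none. Those that did not name exactly 1 gene were left out, and 44969 of the 44994 symbols were in the RefSeq table (GRCh38.p14). Values were transformed as log2 of the intensity plus 16, each gene took its brightest probe set by the mean over all arrays, and a gene had to reach the 30th percentile (12.73) in the mean of at least 1 group. In R 4.3.3, limma 3.58.1 fitted 8 group means to the 24 arrays (16 residual degrees of freedom, moderated variances with an intensity trend), and 13 contrasts were each adjusted by Benjamini-Hochberg and called under 0.05. With 3 arrays against 3, no exact permutation p can be below 0.1, so the model over all genes was used. Precision is limited by the number of arrays.

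Values on every array were given for FBL, NOP56, DKC1, NCL, NPM1, BOP1, PES1 and WDR12 (GNL3 has no probe set) and, per dose and line, for up to 4 largest falls and 2 largest rises that passed with all 3 treated arrays outside the DMSO range. For line differences the 3 largest each way were named, for the other genes of the pathway 2 falls and 1 rise. Other members are given by their changes. Alternatives were median-centred, spike-in-centred and jointly quantile-normalized arrays, no filter and a 50th percentile filter, the mean of probe sets, pseudocounts of 1 and 64, no trend, a replicate block, only the groups compared, and each array left out.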

Additional observations from a re-analysis of the deposited data

Results flagged for a closer look

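The results that stood out were effects of a dose that differed between U2-OS and SJSA-1, each by the interaction term of the limma model (SJSA-1 minus U2-OS, 3 arrays per group), and no explanation was weighed.

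At 100 nM UTP3 had -0.92 ± 0.14 (adjusted p = 1.6e-05), NGDN -0.77 ± 0.14 (adjusted p = 0.000203) and IMP3 -0.76 ± 0.15 (adjusted p = 0.000385), and each fell in both lines on all 3 treated arrays and further in SJSA-1. With the mean of its probe sets the NGDN difference was -0.29. At 400 nM NOP56 had -0.65 ± 0.092 (adjusted p = 2e-06), UTP3 -0.59 ± 0.14 (adjusted p = 0.00102) and NOP2 -0.57 ± 0.15 (adjusted p = 0.00381), with the larger falls in SJSA-1. RRP9 had 0.86 ± 0.16 (adjusted p = 6.8e-05), YAE1 0.79 ± 0.16 (adjusted p = 0.000307) and DDX10 0.78 ± 0.16 (adjusted p = 0.000211), with the larger falls in U2-OS, and the RRP9 change in SJSA-1 (0.10) did not pass by itself. YAE1 lay around the filter intensity in SJSA-1 at 400 nM, which limits its fall there. The 400 nM arrays of U2-OS were taken as normalized apart, so at that dose line, dose and normalization set cannot be told apart.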

How the results depend on the processing

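Under the alternatives 391 counts stayed within 1.5 times of the reported ones and 52 did not, while of the changes of single genes 1513 kept their direction and call, 34 moved in size, 31 newly passed the threshold, 47 no longer passed and 10 turned in sign. The counts of members that fell at 100 and 400 nM stayed within 1.5 times of the reported ones under every alternative run. With only the groups compared, 1 member fell and 2 rose in U2-OS at 25 nM, 10 rose in U2-OS at 100 nM and 4 at 400 nM, and in SJSA-1 1 fell at 25 nM, 1 rose at 100 nM and 0 at 400 nM. Median centring gave 9 and 4 rises in U2-OS at 100 and 400 nM, and in SJSA-1 1 fall and 1 rise at 25 nM, 12 rises at 100 nM and 10 at 400 nM. Spike-in centring gave 0 rises at 100 and 400 nM in both lines, 0 falls in SJSA-1 at 25 nM, 16 differences from 100 to 400 nM in U2-OS, and 0 and 8 differences between the lines at 100 and 400 nM. Joint quantile normalization gave 1 rise in U2-OS at 400 nM and, in SJSA-1, 1 at 25 nM and 2 at 400 nM. The mean of probe sets gave 1 rise in U2-OS at 400 nM and, in SJSA-1, 1 fall and 1 rise at 25 nM and 2 rises at 400 nM, and the 50th percentile filter 1 rise in SJSA-1 at 25 nM. For the other pathway genes the calls with only the groups compared were 6 and 70 in U2-OS at 25 and 100 nM and 2 in SJSA-1 at 25 nM, where spike-in centring gave 0.

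With 1 array left out, members that rose ranged from 1 to 2 in U2-OS at 400 nM and, in SJSA-1, from 0 to 3 at 25 nM (3 without DMSO replicate 1) and from 0 to 6 at 400 nM (6 without 400 nM replicate 3). Members that fell in SJSA-1 at 25 nM ranged from 1 to 2. Differences between the lines ranged from 0 to 1 at 25 nM, from 5 to 11 at 100 nM and from 14 to 24 at 400 nM, and the other pathway genes in SJSA-1 at 25 nM from 4 to 17.

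Of 118 changes against DMSO that passed, the sign turned for 6 with spike-in centring (NOC2L in all 4 of its rises, NHP2 and FBL) and for 0 with median centring or joint quantile normalization, and of all 270 changes it turned for 59, 27 and 11. Among the named changes recomputed under every alternative, and counting those that passed with the reported setting or the other, signs turned for UTP15 in U2-OS at 100 nM (-0.23, mean of probe sets). With spike-in centring they turned for NHP2 (-0.0011) and NOC2L (-0.12) in U2-OS at 400 nM, for NOC2L (-0.18) and FBL (-0.30) in SJSA-1 at 100 nM, and for BOP1 (-0.89) and WDR12 (-0.95) in SJSA-1 at 400 nM, where replicate 2 raised the spike-in mean. With median centring they turned for NOP56 in SJSA-1 at 100 nM (0.14) and for FBL (0.15) and NPM1 (0.14) at 400 nM. Beyond the choice of scale or probe set, the cause was not tested.

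Arrays of the same replicate number deviated together in part: the correlation was over 0.1 in 9 of 18 such pairs in U2-OS (median 0.122, with 6 of 36 and -0.0741 for different numbers) and 8 of 18 in SJSA-1 (14 of 36 for different numbers). All 3 pairs passed 0.1 only between 100 and 400 nM in U2-OS (0.149 to 0.327), where 33 members differed with and without the block, and for no group against DMSO, so the number was not taken as a pairing. With the replicate block, 18, 35, 23 and 32 members fell in U2-OS at 100 and 400 nM and in SJSA-1 at 100 and 400 nM. Probes near the filter intensity, such as YAE1 in SJSA-1, limit how far a fall can be followed.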
